A study of Rattus norvegicus with 16 samples.

Results

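This report describes 10 genes of mitochondrial fatty acid beta-oxidation in isolated rat pancreatic islets: Cpt1a, Cpt2, Slc25a20, Acadl, Acadvl, Acadm, Hadha, Acaa2, Decr1 and Etfdh. They were chosen by name, with earlier results of these data known, and each probe set whose only annotated symbol was 1 of these genes was taken. That gave 11 probe sets, 2 of them for Cpt1a, and all 11 passed the filter on low intensity; the array named 10411 genes in all. RNA was hybridised to a rat oligonucleotide array in 4 groups. Islets infected with a PPARγ adenovirus were kept in the PPARγ agonist GW347845 (4 arrays) or in vehicle (4 arrays), and islets infected with a null adenovirus were kept in GW347845 (3 arrays) or in vehicle (3 arrays). Both viruses were given at 50 viral particles per cell for 32 h, the compound at 200 nM and the vehicle, 0.004% DMSO, for a further 16 h, so all groups carried an adenovirus. Strain, age and the number of animals are not given in the labels, and neither is whether replicates were separate islet preparations. An islet is a mixture of cell types, and in such bulk RNA fewer cells of a type and less RNA per cell cannot be told apart.

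Long-chain fatty acids enter the mitochondrion by the carnitine shuttle: Cpt1a, the carnitine palmitoyltransferase of the outer membrane, loads the acyl group onto carnitine, the carrier Slc25a20 moves it across the inner membrane, and Cpt2 returns it to coenzyme A. The acyl-CoA dehydrogenases then take the first electrons, Acadvl from very long, Acadl from long and Acadm from medium chains. Hadha is the alpha subunit of the trifunctional protein, which hydrates and oxidises long-chain intermediates, Acaa2 is a thiolase that releases acetyl-CoA, and Decr1 reduces the double bonds of unsaturated acyl-CoA. Etfdh passes the electrons of the dehydrogenases to ubiquinone. PPARγ is a lipid-activated nuclear receptor that binds DNA as a pair with RXR, at an element called DR1 made of repeated AGGTCA half-sites with 1 base between them; in adipocytes it drives lipid storage genes, and genes of beta-oxidation are best known as targets of its relative PPARα.

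Promoters are shown because the experiment raised a receptor that binds such elements. RefSeq promoters (build GRCr8, 250 bases before to 50 after the annotated start) matched 7 of the 10 genes: Cpt1a, Cpt2, Slc25a20, Acadvl, Acadm, Hadha and Etfdh. The DR1 element, taken as AGGTCA, then N, then AGGTCA, was searched on both strands, and a match with at most 2 mismatches in its 12 fixed letters was found in 2 of 7, or 28.6%, against 3.77% of 33469 promoters of the same length. At most 1 mismatch was allowed in a second count, which held 1 of 7 members and 0.439% of all promoters. No member held the exact motif, which 0.0538% of all promoters did. The half-site AGGTCA on its own, which overlaps that motif, stood in 1 of 7 members, or 14.3%, and in 16.2% of all promoters. Among 21842 promoters of protein-coding genes, 3.25% had at most 2 mismatches, 0.398% at most 1 and 0.0229% the exact motif. The half-site stood in 14.2% of them. The promoters of Cpt1a, Cpt2, Acadm, Hadha and Etfdh held no match in these 300 bases, and sequence outside them was not searched. Of the genes that rose with both treatments below, Acadvl held a match, Etfdh held none, and Acadl, Acaa2 and Decr1 had no promoter to search. The 2 promoters with a match, and that of Hadha as an example without one, are printed here with the match in capitals. Acadvl lies at chr10:55236656-55236955 on the minus strand, and its match, with 1 mismatch, starts at position -17 from the annotated start. Slc25a20 lies at chr8:118243323-118243622 on the plus strand, and its match, with 2 mismatches, starts at position 16. Hadha lies at chr6:31907551-31907850 on the plus strand.
Acadvl: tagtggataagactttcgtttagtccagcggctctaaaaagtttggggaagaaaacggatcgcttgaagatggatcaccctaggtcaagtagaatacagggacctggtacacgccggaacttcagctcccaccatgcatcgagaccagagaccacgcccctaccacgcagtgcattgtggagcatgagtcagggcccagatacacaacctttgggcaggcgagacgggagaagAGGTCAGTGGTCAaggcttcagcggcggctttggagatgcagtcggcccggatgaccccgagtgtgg
Slc25a20: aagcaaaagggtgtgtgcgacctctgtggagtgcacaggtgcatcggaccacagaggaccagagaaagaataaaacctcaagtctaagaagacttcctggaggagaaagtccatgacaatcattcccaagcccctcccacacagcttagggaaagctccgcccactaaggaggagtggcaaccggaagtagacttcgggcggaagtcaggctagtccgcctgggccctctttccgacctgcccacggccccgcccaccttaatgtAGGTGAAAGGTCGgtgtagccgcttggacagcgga
Hadha: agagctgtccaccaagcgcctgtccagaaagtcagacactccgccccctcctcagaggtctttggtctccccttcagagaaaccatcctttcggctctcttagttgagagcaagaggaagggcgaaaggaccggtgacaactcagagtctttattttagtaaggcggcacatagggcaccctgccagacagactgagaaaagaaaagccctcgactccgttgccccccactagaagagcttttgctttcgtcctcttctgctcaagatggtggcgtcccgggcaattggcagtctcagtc
A match is a description of these letters, not evidence of binding, and no receptor binding was measured.

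The labelled treatment was visible in the viral gene. Pparg averaged 5510 ± 639.8 (SD, n = 4) intensity with the PPARγ virus and compound and 5593 ± 582.2 (SD, n = 4) with the PPARγ virus and vehicle, against 35.83 ± 13.7 (SD, n = 3) with the null virus and compound and 33.03 ± 5.74 (SD, n = 3) with the null virus and vehicle. Beta cell markers were abundant in every group: 7 were on the array, and their summed intensity was 12738.7 to 17847.1 with the PPARγ virus and compound, 13968.7 to 17174.4 with the PPARγ virus and vehicle, 15818.3 to 16946.8 with the null virus and compound and 15248.3 to 20160.7 with the null virus and vehicle. Of these 7, 0 passed in the comparison of both treatments with neither. Their log2 changes were above 0 for 0 of the 7, with a median of -0.09, against -0.03 over all probe sets. The transcription factor gene Pdx1 had a log2 change of -0.67 (95% interval -1.01 to -0.34, adjusted p = 0.0904) and the gap junction gene Gjd2 of -0.95 (95% interval -1.44 to -0.47, adjusted p = 0.0975). Non-beta islet hormone transcripts set some arrays apart. Their sum was 498.3 and 998.5 in the compound and vehicle arrays numbered 2 of the PPARγ virus and 2337.6 and 2448.1 in those numbered 4, against 4640.4 to 9837.3 in the other 10 arrays. Of 3 adipocyte markers on the array none passed the filter; Lep read 0.9 to 3.7, Plin1 9.8 to 20.4 and Cfd 16.0 to 38.1, and their sum was 44.3 to 52.0 with the PPARγ virus and compound, 33.2 to 42.6 with the PPARγ virus and vehicle, 29.5 to 40.7 with the null virus and compound and 34.3 to 38.6 with the null virus and vehicle. Among 4 duct markers the keratin gene Krt19 passed the test in the comparison of both treatments with neither (log2 change 1.30, adjusted p = 0.0391), with 205.0 to 296.1 intensity against 72.2 to 141.5. The sum of the 4 was 2950.7 to 3428.5 with the PPARγ virus and compound and 2937.7 to 3548.4 with the PPARγ virus and vehicle, against 2495.9 to 3249.3 with the null virus and compound and 2407.3 to 3569.4 with the null virus and vehicle. The part of other cell types in the results below was not tested.

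With receptor and agonist together, set against null virus and vehicle, 5 of the 10 genes rose and 0 fell. A gene passed when the adjusted p of limma's test, over all 10078 probe sets tested, was under 0.05; by that rule 0.605% of these probe sets rose and 0.0595% fell, 0.665% in all. The 5 were Acadvl and Acadl, both acyl-CoA dehydrogenases, the thiolase Acaa2, the reductase Decr1 and the electron carrier enzyme Etfdh, with rises of 1.70-fold to 2.37-fold. In 6 of the 10, these 5 and Slc25a20, every array of the PPARγ virus with compound was above every array of the null virus with vehicle, as in 4.06% of all probe sets; for 0 was every array below, against 4.89%. An unadjusted p under 0.05 was reached by 7 of 10 genes, against 8.48% of all probe sets. The median log2 change of the 10 genes, with Cpt1a taken from its brighter probe set, was 0.69, against -0.03 over all probe sets. Because the members were chosen with earlier results of these data known, their shares beside those of all probe sets, here and below, are descriptions.

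**Figure D1:**
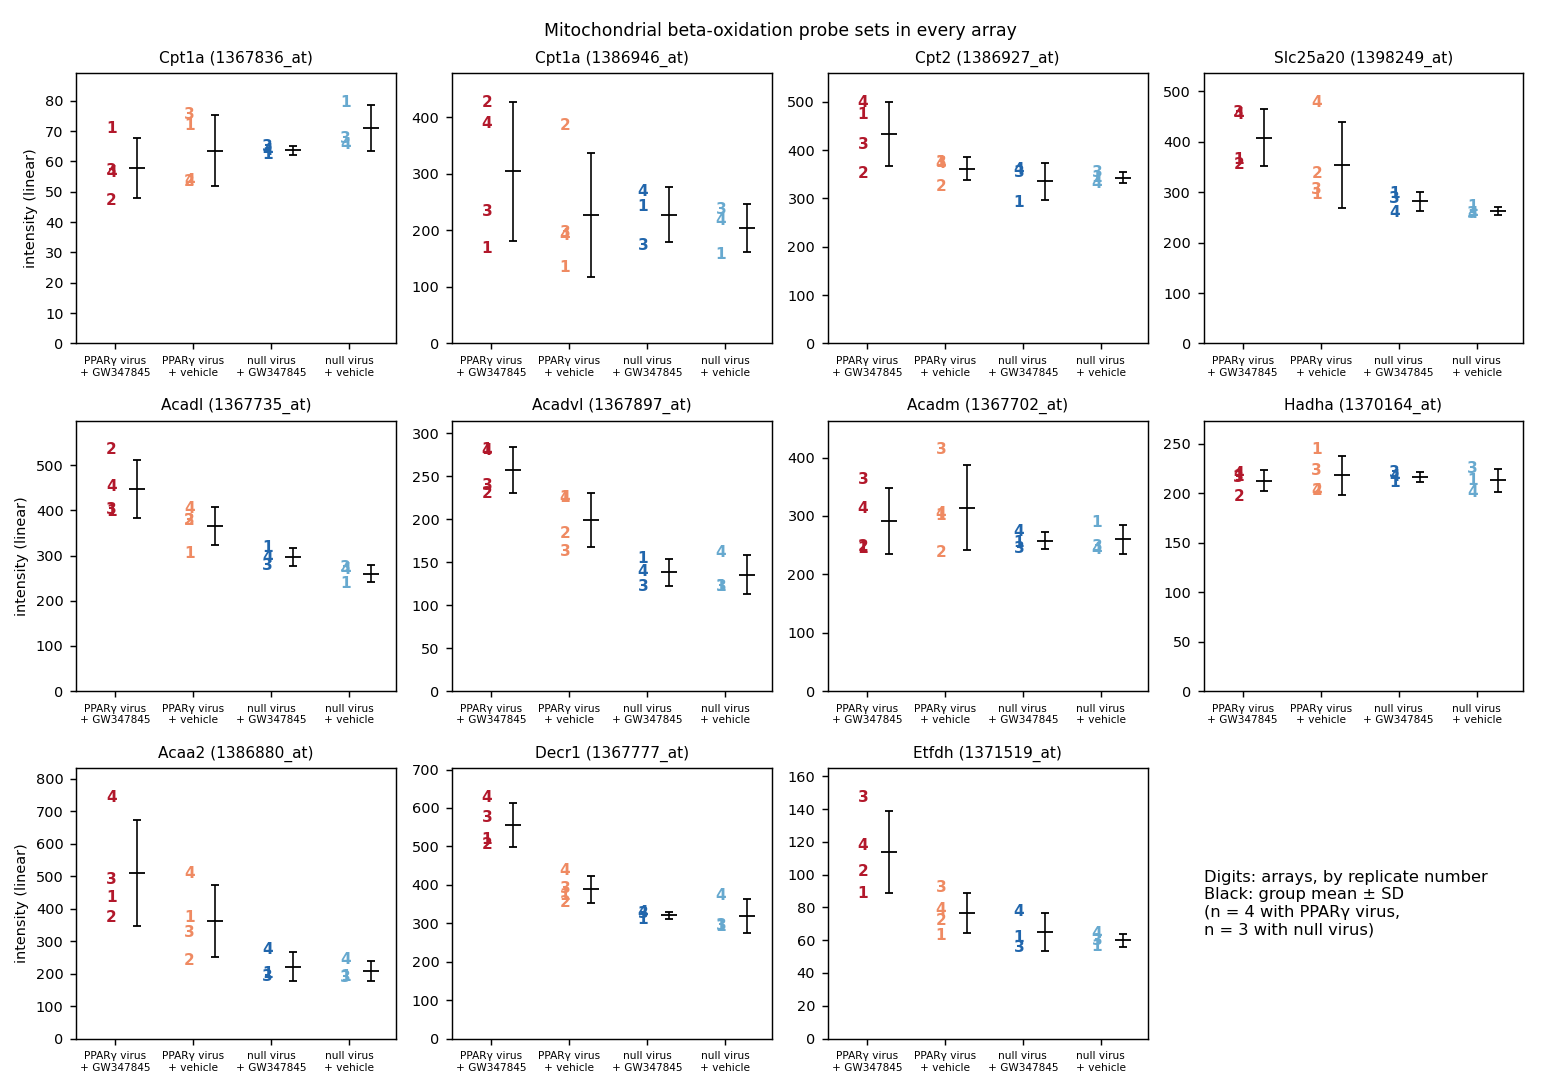
Intensity on a linear scale of the 11 beta-oxidation probe sets in each of 14 arrays, with 1 panel per probe set; digits are arrays by replicate number, and black marks give the group mean ± SD (n = 4 with PPARγ virus, n = 3 with null virus). Decr1 lies between 504.6 and 627.8 in the 4 arrays of PPARγ virus with GW347845, above the other 10 arrays, while Hadha lies between 197.0 and 243.8 in every array.

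The carnitine shuttle came first in the pathway, and none of its 3 genes passed. Slc25a20, the carrier, read 365.2, 355.5, 458.8 and 454.0 with the PPARγ virus and compound, 296.1, 336.3, 304.6 and 478.5 with the PPARγ virus and vehicle, 296.9, 288.1 and 260.7 with the null virus and compound, and 271.5, 257.8 and 258.0 with the null virus and vehicle. The groups with both treatments and with neither did not overlap, and a single vehicle array of the PPARγ virus, number 4, was the highest of all 14. Its log2 change between those groups was 0.62 ± 0.16 SE (95% interval 0.29 to 0.95, adjusted p = 0.118). Without PPARγ virus vehicle replicate 4 the adjusted p was 0.0273, with all 16 columns it was 0.0329 and with the array of 2 labels taken as null virus vehicle 0.0389, while over all 28 alternative fits it ran to 0.331.

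Cpt2, on the inner membrane, read 473.1, 350.9, 411.8 and 498.9 with the PPARγ virus and compound, 373.9, 325.0, 374.3 and 372.1 with the PPARγ virus and vehicle, 291.5, 354.5 and 359.7 with the null virus and compound, and 343.2, 353.7 and 331.5 with the null virus and vehicle. Within both PPARγ virus groups array 2 was the lowest, and it reached into the range of the null virus arrays. The log2 change of both treatments against neither was 0.32 ± 0.13 SE (95% interval 0.05 to 0.59, adjusted p = 0.470).

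Cpt1a is known as the control point of the pathway, and its 2 probe sets went different ways. Probe set 1386946_at read 168.3, 426.6, 233.7 and 388.6 with the PPARγ virus and compound, 134.0, 386.0, 195.9 and 191.5 with the PPARγ virus and vehicle, 241.3, 173.9 and 268.1 with the null virus and compound, and 157.0, 237.4 and 218.1 with the null virus and vehicle. The groups overlapped, with array 2 the highest in both PPARγ virus groups. Probe set 1367836_at, dimmer throughout, read 70.9, 47.1, 57.1 and 56.4 with the PPARγ virus and compound, 71.7, 53.4, 75.4 and 53.6 with the PPARγ virus and vehicle, 62.2, 65.0 and 63.7 with the null virus and compound, and 79.5, 67.6 and 65.7 with the null virus and vehicle. There array 2 was the lowest in both PPARγ virus groups. For both treatments against neither the log2 change was 0.49 ± 0.34 SE for the first (95% interval -0.24 to 1.22, adjusted p = 0.785) and -0.28 ± 0.16 SE for the second (95% interval -0.63 to 0.06, adjusted p = 0.702).

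Over the 14 arrays the 2 Cpt1a probe sets correlated at r = -0.77, and at -0.75 after each group's mean was removed; both values are descriptions over arrays that share scaling and, in pairs, a replicate number. With the summed non-beta hormone transcripts the deviations of 1367836_at correlated at 0.79 and those of 1386946_at at -0.75. Acadl stood at -0.69 on the same measure, Hadha at 0.61, Acadm at 0.57, Cpt2 at 0.52 and Slc25a20 at -0.10. Acaa2, Decr1, Etfdh and Acadvl lay between 0.21 and 0.30. With the beta cell sum Decr1 had 0.62, Acadvl 0.485, Acaa2 0.479, Etfdh 0.34 and Acadl -0.451. With the duct sum Acadvl had 0.624, Decr1 0.274, Acaa2 0.248, Etfdh 0.139 and Acadl -0.318. Cpt1a 1367836_at also had 0.646 with the acinar and 0.601 with the endothelial and stromal sum, and 1386946_at -0.485 and -0.465. The part of cell content in these values was not tested. Without the PPARγ virus arrays numbered 2 the log2 change of 1386946_at was 0.30 and that of 1367836_at was -0.20, and neither passed. For this gene the data thus gave no direction that both probe sets shared.

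**Figure D2:**
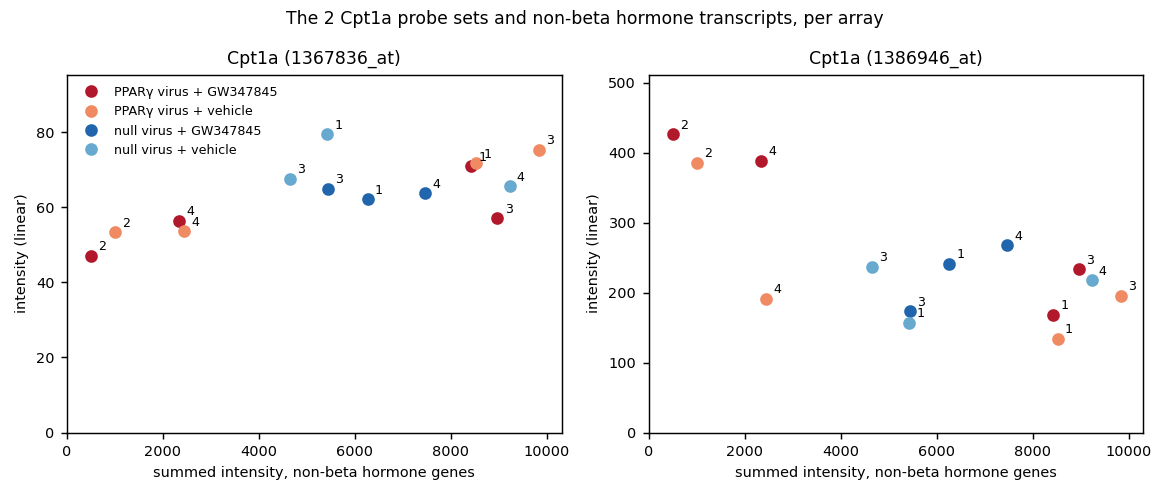
Intensity on a linear scale of the 2 Cpt1a probe sets against the summed intensity of 5 non-beta islet hormone and marker genes, in each of 14 arrays (points, coloured by group and numbered by replicate). The 2 arrays numbered 2 of the PPARγ virus, at sums of 498.3 and 998.5, hold 47.1 and 53.4 on 1367836_at and 426.6 and 386.0 on 1386946_at.

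The 3 acyl-CoA dehydrogenases split. Acadvl, which opens the pathway for very long chains, read 281.1, 230.3, 239.7 and 279.8 with the PPARγ virus and compound, 225.6, 183.2, 162.0 and 225.4 with the PPARγ virus and vehicle, 153.8, 121.8 and 138.7 with the null virus and compound, and 122.0, 122.3 and 161.9 with the null virus and vehicle. Each of the 8 PPARγ virus arrays was above each of the 6 null virus arrays, the closest being 162.0 and 161.9. Both treatments against neither gave a log2 change of 0.91 ± 0.15 SE, or 1.88-fold (95% interval 0.59 to 1.24, adjusted p = 0.00791). The call was lost without null virus vehicle replicate 1 (adjusted p = 0.0661, the highest of 28 alternative fits) or 3 (0.0558).

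Acadl, the long-chain enzyme, read 398.4, 534.3, 402.2 and 453.9 with the PPARγ virus and compound, 303.4, 378.1, 377.0 and 403.3 with the PPARγ virus and vehicle, 317.7, 277.4 and 295.0 with the null virus and compound, and 237.7, 273.7 and 269.1 with the null virus and vehicle. Array 2 was the highest of the compound arrays with the PPARγ virus, and both PPARγ virus groups lay above the null virus group in vehicle. The log2 change of both treatments against neither was 0.76 ± 0.13 SE, or 1.70-fold (95% interval 0.49 to 1.04, adjusted p = 0.00927). It was lost without null virus vehicle replicate 1 (adjusted p = 0.0778, the highest of 28 alternative fits) or with those 2 groups fitted alone (0.0546).

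Acadm, the medium-chain enzyme, read 244.8, 247.1, 362.0 and 313.6 with the PPARγ virus and compound, 300.3, 238.1, 413.5 and 304.6 with the PPARγ virus and vehicle, 255.1, 244.1 and 273.9 with the null virus and compound, and 288.7, 248.1 and 242.8 with the null virus and vehicle. All 4 groups overlapped, and array 3 was the highest in both PPARγ virus groups. Its log2 change was 0.15 ± 0.17 SE (95% interval -0.22 to 0.52, adjusted p = 0.902).

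Downstream of the dehydrogenases, the 4 groups overlapped for Hadha. It read 217.1, 197.0, 215.8 and 220.2 with the PPARγ virus and compound, 243.8, 202.4, 222.8 and 203.1 with the PPARγ virus and vehicle, 210.5, 221.0 and 216.8 with the null virus and compound, and 212.8, 224.7 and 200.8 with the null virus and vehicle. Its log2 change for both treatments against neither was -0.00 ± 0.10 SE, with a 95% interval of -0.22 to 0.22, narrower than that of any other of the 11 probe sets. Hadhb, the beta subunit of the same complex, chosen after its values were seen, had -0.06 (95% interval -0.39 to 0.27, adjusted p = 0.958).

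Acaa2, the thiolase, had the largest fitted rise of the 10 genes. It read 434.3, 373.6, 490.1 and 743.2 with the PPARγ virus and compound, 373.5, 240.5, 327.5 and 507.2 with the PPARγ virus and vehicle, 201.3, 190.7 and 272.9 with the null virus and compound, and 191.8, 186.9 and 243.5 with the null virus and vehicle. Array 4 was the highest and array 2 the lowest within both PPARγ virus groups, and every array with both treatments exceeded every null virus array. The log2 change was 1.24 ± 0.25 SE, or 2.37-fold (95% interval 0.71 to 1.77, adjusted p = 0.0307). Leaving out any of the 3 null virus vehicle arrays, or PPARγ virus compound replicate 1, 3 or 4, ended the call (adjusted p = 0.0590 to 0.159), as did making array medians equal (0.0610) and counting the array with 2 labels as null virus with compound (0.0599).

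Decr1, needed for unsaturated chains, read 517.0, 504.6, 574.9 and 627.8 with the PPARγ virus and compound, 371.5, 354.2, 389.9 and 436.8 with the PPARγ virus and vehicle, 310.5, 324.8 and 327.9 with the null virus and compound, and 291.7, 295.3 and 371.3 with the null virus and vehicle. The 4 arrays with both treatments stood above all 10 others. The log2 change was 0.79 ± 0.12 SE, or 1.73-fold (95% interval 0.54 to 1.05, adjusted p = 0.00384), and it passed in all 28 alternative fits of this comparison (adjusted p at most 0.0400).

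Etfdh, the ubiquinone-linked enzyme, read 88.4, 102.2, 147.2 and 117.6 with the PPARγ virus and compound, 62.7, 72.3, 92.4 and 79.0 with the PPARγ virus and vehicle, 61.9, 55.6 and 77.7 with the null virus and compound, and 56.0, 60.1 and 63.9 with the null virus and vehicle. Only the PPARγ virus vehicle array numbered 3 reached into the range of the arrays with both treatments. The log2 change was 0.85 ± 0.18 SE, or 1.81-fold (95% interval 0.47 to 1.23, adjusted p = 0.0401). It was the least stable of the 5 calls and passed in 14 of 28 alternative fits; without the PPARγ virus arrays numbered 2 its log2 change was 0.89 (adjusted p = 0.0744), which left 4 genes called, and the highest adjusted p of the 28 was 0.193. Its electron donors Etfa and Etfb, the subunits of the electron transfer flavoprotein, chosen after their values were seen, had 0.42 (adjusted p = 0.531) and 0.27 (adjusted p = 0.858).

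**Figure D3:**
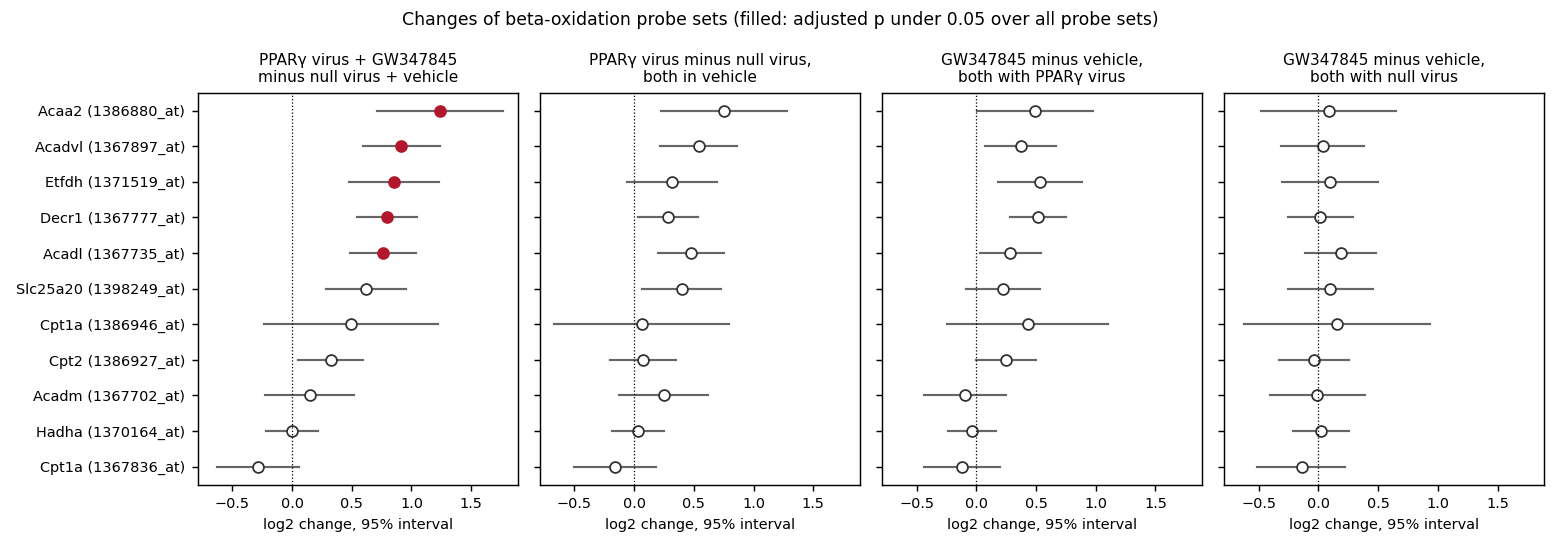
Log2 change of the 11 probe sets with 95% intervals, in panels for both treatments against neither, the virus in vehicle, the compound with the PPARγ virus and the compound with the null virus; filled points passed limma's test with adjusted p under 0.05 over all 10078 probe sets. Filled points appear for Acaa2, Acadvl, Etfdh, Decr1 and Acadl, all in the panel that sets both treatments against neither; the virus comparison in compound, where Decr1, Acadvl and Acaa2 passed, is not drawn.

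In compound, the PPARγ virus was compared with the null virus to show what the receptor added where the agonist was present. Decr1, Acadvl and Acaa2 rose and 0 members fell, that is 3 of 10 genes, against 0.635% of all probe sets rising and 0.0695% falling. The log2 changes were 0.78 ± 0.12 SE for Decr1 (adjusted p = 0.00467), 0.88 ± 0.15 SE for Acadvl (adjusted p = 0.0101) and 1.16 ± 0.25 SE for Acaa2 (adjusted p = 0.0469). Acadl at 0.58 (adjusted p = 0.0662), Etfdh at 0.75 (adjusted p = 0.0798), Slc25a20 at 0.52 (adjusted p = 0.205) and Cpt2 at 0.36 (adjusted p = 0.337) did not pass. For 6 genes every array of the PPARγ virus exceeded every array of the null virus, as for 4.56% of all probe sets; for 0 was every array below, against 5.26%. An unadjusted p under 0.05 was reached by 7 genes, against 9.19% of all probe sets. Without null virus compound replicate 3 or 4 only Decr1 passed; Acadvl then had an adjusted p of 0.0800 or 0.0548, and Acaa2 of 0.222 or 0.0731. The Acaa2 call passed in 11 of 28 alternative fits; it was lost with quantile normalization (adjusted p = 0.0506), equal array medians (0.0781), no filter (0.0638), no trend (0.0598), the groups compared alone (0.0832) or the array with 2 labels taken as vehicle (0.0718), and in 11 of 14 fits without a single array. The duct marker Krt19 rose in this comparison too, by a log2 change of 1.37 (adjusted p = 0.0284), a larger value than that of any member, with 205.0 to 296.1 intensity with the PPARγ virus against 66.5 to 138.7 with the null virus. This comparison shares the PPARγ virus compound arrays with the one above.

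In vehicle, the same comparison asked what the receptor did without added agonist. None of the 10 genes passed limma's test, where 0.0397% of all probe sets did. At an unadjusted p under 0.05 stood 5 genes, against 4.43% of all probe sets: Acaa2 with a log2 change of 0.75 ± 0.25 SE (adjusted p = 0.775), Acadvl with 0.54 ± 0.15 SE (adjusted p = 0.471), Acadl with 0.48 ± 0.13 SE (adjusted p = 0.438), Slc25a20 with 0.40 ± 0.16 SE (adjusted p = 0.945) and Decr1 with 0.28 ± 0.12 SE (adjusted p = 1.00). The arrays of the 2 groups did not overlap for 3 genes, Acadl, Acadvl and Slc25a20, as for 2.45% of all probe sets, and 0 lay wholly below, against 2.17%. Etfdh had 0.32 (95% interval -0.06 to 0.70), and Hadha 0.03 (95% interval -0.19 to 0.25). The median of the 10 genes was 0.30, against 0.00 over all probe sets.

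With the PPARγ virus, compound was compared with vehicle. In the fit without pairing 0 of 10 genes passed, with 5 at an unadjusted p under 0.05 against 2.93% of all probe sets; 0.0595% of probe sets passed. Decr1 had a log2 change of 0.51 ± 0.11 SE (adjusted p = 0.219), Etfdh 0.53 ± 0.16 SE, Acaa2 0.49 ± 0.23 SE, Acadvl 0.37 ± 0.14 SE and Acadl 0.29 ± 0.12 SE (each adjusted p = 1.00). Decr1 and Acadvl had every compound array above every vehicle array, as had 0.645% of all probe sets. Arrays of 1 virus and 1 number deviated together, so the same contrast was fitted with the replicate number as a block within each virus. With that block Decr1 (adjusted p = 0.0101) and Acaa2 (adjusted p = 0.0304) rose, 2 of 10 genes against 0.357% of probe sets rising, and Etfdh stood at 0.0559. With the number as a random block, at an estimated correlation of 0.534, Decr1 (adjusted p = 0.00307) and Etfdh (adjusted p = 0.0353) passed and Acaa2 did not (adjusted p = 0.197), against 0.337% of probe sets rising, so Decr1 was the 1 gene called by both. The 2 calls of the fixed block were lost when the PPARγ virus arrays numbered 2 were left out of the blocked fit (Decr1 0.51, adjusted p = 0.0553; Acaa2 0.45, adjusted p = 0.134).

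Pair by pair, the values were close for Decr1, at 0.47, 0.51, 0.56 and 0.52 on the log2 scale in PPARγ virus pairs 1 to 4. Etfdh had 0.47, 0.47, 0.65 and 0.55, and Acaa2 had 0.21, 0.63, 0.57 and 0.55. In all 4 pairs 7 of the 11 probe sets were higher with compound, against 7.76% of all probe sets, and 0 were lower in all 4, against 10.2%. The 7 were those of Cpt2, Acadl, Acadvl, Acaa2, Decr1 and Etfdh and 1386946_at of Cpt1a. The beta-actin 3 prime to 5 prime ratio, a measure of RNA quality, was 10.474, 14.883, 11.34 and 11.636 in compound arrays 1 to 4 and 10.131, 13.407, 7.581 and 10.167 in vehicle arrays 1 to 4, higher with compound in every pair. It was also higher with compound in the 3 null virus pairs, at 10.008, 14.543 and 11.686 with compound and 8.519, 11.674 and 7.832 with vehicle. The Gapdh ratio of the PPARγ virus arrays was 8.387, 9.224, 9.318 and 11.036 with compound and 12.619, 8.357, 9.253 and 9.904 with vehicle. It was lower with compound in pair 1. For null virus arrays 1, 3 and 4 it was 9.871, 18.851 and 9.046 with compound and 10.539, 9.944 and 9.781 with vehicle. Null virus compound replicate 3 thus had the highest Gapdh ratio of all arrays. Without that array, as without replicate 4, only Decr1 passed in the virus comparison in compound. The part of RNA quality in these changes and in that comparison was not tested.

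**Figure D4:**
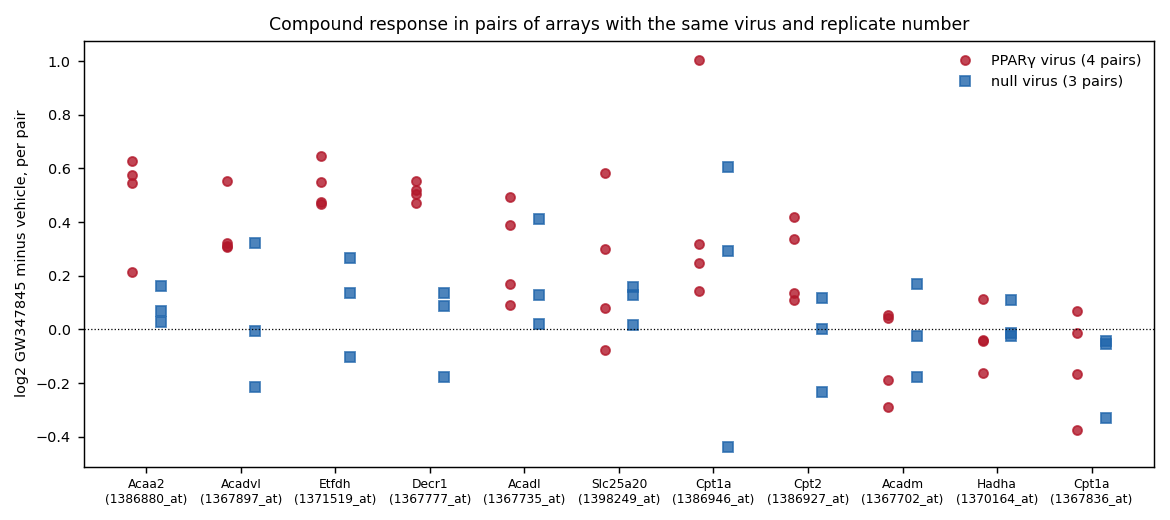
Log2 intensity with GW347845 minus vehicle for the 11 probe sets, in 4 PPARγ virus pairs (circles) and 3 null virus pairs (squares) of arrays with the same virus and replicate number. The 4 PPARγ virus pairs of Decr1 lie between 0.47 and 0.56 and its 3 null virus pairs between -0.18 and 0.14.

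With the null virus, compound against vehicle asked what the agonist did at the islets' own receptor level. For the 10 genes limma made 0 calls with or without the block, with 0 members at an unadjusted p under 0.05 without the block, and over all probe sets it made 0 as well, with 0.943% under 0.05 unadjusted. The 11 log2 changes ran from -0.14 for 1367836_at of Cpt1a to 0.19 for Acadl (95% interval -0.11 to 0.48). Acadl was the 1 gene with every compound array above every vehicle array, as for 2.08% of all probe sets, and 1367836_at the 1 probe set with every array below, as for 2.53%. Decr1 had 0.02 ± 0.13 SE (95% interval -0.26 to 0.29), with pairs at 0.09, 0.14 and -0.18. Acaa2 had 0.09 (95% interval -0.48 to 0.65) and Etfdh 0.10 (95% interval -0.30 to 0.50).

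Whether the response to compound differed between viruses was tested as an interaction. No member passed, and 0 of 10078 probe sets did, with 1.42% at an unadjusted p under 0.05. In this fit without the block Decr1 was the 1 member under that level, with a difference of 0.50 ± 0.17 SE in log2 change (adjusted p = 1.00). With the block its adjusted p was 0.377, while 0.0496% of probe sets passed. Limma's unadjusted p with the block was 0.000876 for Decr1, 0.00802 for Acaa2, 0.0167 for Etfdh, 0.0425 for Acadvl and 0.0448 for Cpt2. None of these passed after adjustment, and the share of all probe sets under 0.05 there was not counted. Etfdh had 0.44 (95% interval -0.10 to 0.97) and Acaa2 0.40 (95% interval -0.34 to 1.15).

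Neighbouring pathways were described by lists of other genes in the comparison of both treatments with neither. Of 19 other mitochondrial beta-oxidation and acyl-CoA genes 16 were tested and 1 rose, Hsd17b10, a short-chain hydroxyacyl-CoA dehydrogenase, at 0.58 ± 0.12 SE (adjusted p = 0.0472); the median was 0.18. Eci2, an enoyl-CoA isomerase, had 0.72 (adjusted p = 0.127). Acads, Echs1 and Hadh, other short-chain enzymes chosen after their values were seen, did not pass, at -0.26, 0.22 and 0.02. Of 6 dehydrogenases of amino acid and choline breakdown that pass electrons to the same flavoprotein 3 were tested, 0 passed, and the median was 0.12, with Sardh at 0.16 and Gcdh at 0.12.

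Peroxisomal beta-oxidation shortens very long chains before they reach mitochondria. Of 16 listed genes 9 were tested and 2 rose, with a list median of 0.44. Ehhadh, the peroxisomal bifunctional enzyme, averaged 59.95 ± 16.75 (SD, n = 4) intensity with both treatments, against 8.97 ± 5.70 (SD, n = 3) with neither, a log2 change of 2.33 (adjusted p = 0.00284). Pex11a, a peroxisome division factor, averaged 164.1 ± 26.77 (SD, n = 4), against 62.37 ± 12.4 (SD, n = 3), a log2 change of 1.34 (adjusted p = 0.00137). Ehhadh was above the filter's limit of 39.3 only in the 4 arrays with both treatments (42.4 to 82.6) and reached at most 32.7 in the others, so it entered the test through the group where it was high and had to differ; its call and the list's count and median, which hold it, support nothing further.

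Of the ketone body enzymes 2 of 5 were tested and 0 passed, Acat1 at 0.74 (adjusted p = 0.368) and Oxct1 at -0.53. Of 13 genes that control entry and transcription 6 were tested, and Pparg itself was the 1 that rose in this comparison. Pdk4, a kinase that shuts off pyruvate dehydrogenase, passed in the virus comparison in compound, with 60.3 ± 11.07 (SD, n = 4) intensity with the PPARγ virus against 31.63 ± 3.29 (SD, n = 3) with the null virus (log2 change 0.83 ± 0.17 SE, adjusted p = 0.0389). Its log2 change for compound with the null virus was -0.35 (95% interval -0.74 to 0.04).

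Of 3 lists of mitochondrial genes outside fatty acid oxidation no member passed in this comparison. In the citrate cycle 0 of 14 tested genes passed (median 0.00, Ogdh at -0.49 and Sdha at 0.30), in a sample of the respiratory chain 0 of 18 (median 0.01, Cox4i1 at 0.41 with an adjusted p of 0.0613 and Uqcrc2 at 0.19), and among genes that follow mitochondrial abundance 0 of 11 (median 0.04, Hspa9 at 0.26 and Slc25a4 at -0.09). These lists describe single genes and were not tested against the 10 members.

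**Figure D5:**
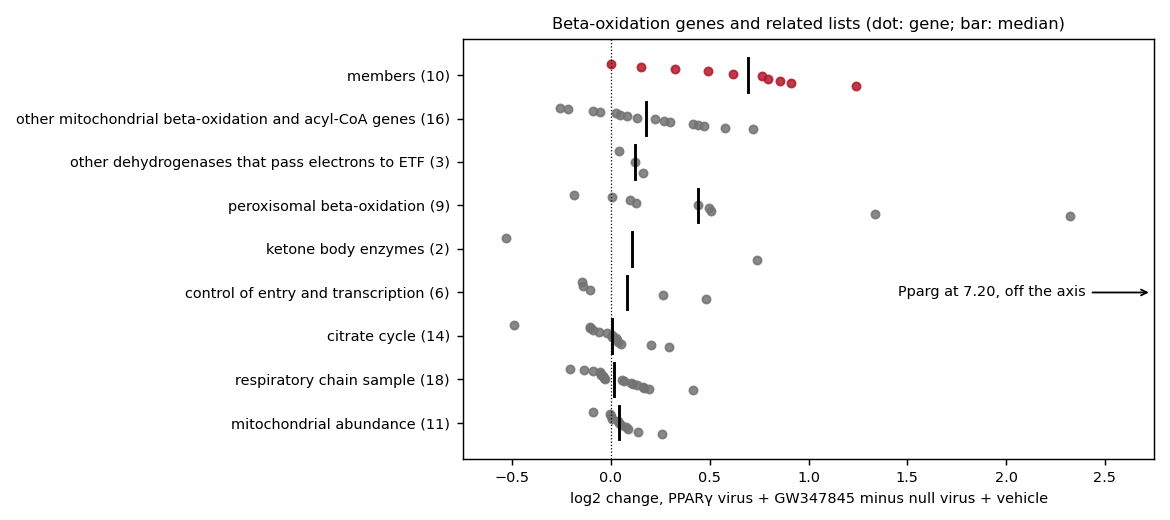
Log2 change of single genes (dots) with PPARγ virus and GW347845 minus null virus and vehicle, for the 10 member genes and 8 lists of related genes, with the number tested in brackets and the list median as a bar; each gene is shown by its brightest probe set. The members have a median of 0.69, peroxisomal genes 0.44 and citrate cycle genes 0.00, and Pparg at 7.20 lies beyond the axis.

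Among themselves, Acaa2 and Decr1 varied most alike of the pairs set beside each other here: r was 0.92 over the 14 arrays and 0.83 after group means were removed. Decr1 with Etfdh had 0.89 and 0.48, and Decr1 with Acadvl 0.90 and 0.50. By a rule on likeness to the mean of the 10 genes, scaled and averaged over 14 arrays, the closest other probe sets were those of the fatty acid elongase Elovl5 (r = 0.95), the signal recognition particle gene Srp9 (0.94), the junction gene Cgnl1 (0.93), the peroxisome import gene Pex19 (0.92) and the mitochondrial ferredoxin gene Fdx1 (0.92). Fdx1, which is in none of the lists, passed for both treatments against neither, with a log2 change of 0.47 ± 0.10 SE (adjusted p = 0.0446). Srp9 (adjusted p = 0.00219), Cgnl1 (0.00469) and Elovl5 (0.0295) passed as well, and Pex19 did not (0.0960). They were picked by likeness to the members over these same arrays, so their calls lend the members no support. The correlations rest on arrays that share groups and scaling and carry no test. Elovl5 averaged 858.4 ± 75.6 (SD, n = 4) intensity with both treatments and 705.9 ± 44.36 (SD, n = 4) with the PPARγ virus and vehicle, against 630.9 ± 35.56 (SD, n = 3) with the null virus and compound and 597.9 ± 54.3 (SD, n = 3) with the null virus and vehicle.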

How the data were processed

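RNA of 16 labelled arrays was deposited as intensity, scaled by the authors: the mean trimmed by 2% at each end is 150.0 in every column. The summarising software is not given in the sources used here, and arrays give no depth, so their number limits precision. Null virus replicate 2 of both treatments held identical columns and was left out, leaving 14 arrays. Values were taken as log2(intensity + 4.6), which understates changes of dim genes. Probe sets above 39.3, the 40th percentile, in at least 4 arrays were tested (10078; 57 control probe sets were not). Symbols came from the platform annotation, updated by gene identifier. Group means were fitted with limma 3.58.1 in R 4.3.3 (trend), with Benjamini-Hochberg adjustment over all tested probe sets; the code was tested on simulated data. Figures used Python 3.11.15 and matplotlib 3.10.9.

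Replicates may be technical, so p-values measure only the spread between these arrays. Numbers paired arrays within a virus. Deviations of the 7 same-virus, same-number pairs correlated at r = 0.445 to 0.702, against -0.548 to 0.329 for other numbers. Across viruses the arrays numbered 1 correlated at 0.299 to 0.433 and those numbered 3 or 4 at -0.139 to 0.128. Arrays of other numbers across viruses stood at -0.402 to 0.338. The members and lists were chosen with earlier results of these data known. Every member probe set was named, with Pparg, each list gene that passed in any comparison, and the 2 genes of each list with the smallest p in the combined comparison; marker genes are printed where their values bear on a result. The 5 genes of like pattern had the highest Pearson r. Alternatives were other normalization, pseudocount, filter, columns, blocks and each array left out.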

Additional observations from a re-analysis of the deposited data

Results flagged for a closer look

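Cpt2 in the 4 arrays of the PPARγ virus with vehicle held 1 array far from the others: replicate 2 read 325.0 while replicates 1, 3 and 4 read 372.1 to 374.3. Its gap to the nearest of the others was 0.955 of the group's range, above Dixon's 95% critical value of 0.829 for 4 samples. Of 22 groups of 4 arrays examined (11 probe sets in 2 groups), this was the 1 that exceeded the value, and chance alone gives about 1 in 20. The same array had a non-beta hormone sum of 998.5, and whether the 2 are related was not tested.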

How the results depend on the processing

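Over 66 results of single probe sets and 30 settings, 1795 of 1903 values kept their direction and their side of the threshold, 45 lost it, 17 gained it and 46 changed sign; the cause was not tested where a call moved, beyond fewer arrays in the fits that leave 1 out. The count of member genes for both treatments against neither, 5, was 3 with array medians made equal and 3 with the groups compared alone, 4 with quantile normalization, no filter or the twice-labelled array as compound, 6 with all 16 columns or the twice-labelled array as vehicle, where Slc25a20 passed, and 1 to 5 without single arrays: 1 without null virus vehicle replicate 1, 2 without replicate 3, and 3 without replicate 4 or without PPARγ virus compound replicate 3 or 4. The virus count in compound, 3, was 5 with all 16 columns, 5 with the twice-labelled array counted as compound, 5 with replicate block over all 4 groups, 2 with quantile normalization, equal medians, no filter, no trend or the groups compared alone, and 1 to 3 without single arrays. The virus count in vehicle, 0, was 1 with the replicate block over all groups, and the compound count with the PPARγ virus, 0, was 1 with it, 2 with a random replicate block within each virus (Decr1 and Etfdh) and 2 with the fixed one (Decr1 and Acaa2); for compound with the null virus and the interaction neither block changed a member call. Over all probe sets the combined calls, 67, were 177 with the block over all groups and 39 without null virus vehicle replicate 1; virus calls in compound, 71, were 211 and, without null virus compound replicate 3, 31; virus calls in vehicle, 4, were 34, and 1 with groups alone; compound calls with the PPARγ virus, 6, were 40 with the fixed block, 42 with the random block, 14 with the block over all groups, and 2 without PPARγ virus compound replicate 4.

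Where the sign changed, some values were larger in size than in the main fit. There Cpt1a 1386946_at was 0.062 for the virus in vehicle, and Acaa2 was 0.086 for compound with the null virus. Hadha for both treatments was 0.023 with medians equal, 0.008 with all 16 columns, 0.008 with the twice-labelled array as vehicle, 0.033 with the block over all groups and 0.034 without the PPARγ virus arrays numbered 2 (chosen after seeing the data), and -0.042 to 0.038 without single arrays. For the virus in compound it was 0.010 with that block and 0.011 without those arrays, and -0.043 to 0.011 without single arrays; for the virus in vehicle -0.022 to 0.071; for compound with the PPARγ virus 0.004 with medians equal and -0.067 to 0.021; for compound with the null virus -0.017 to 0.062. Cpt1a 1386946_at for the virus in vehicle was -0.101 with all 16 columns, -0.101 with the twice-labelled array as vehicle, -0.178 with the block, -0.225 without the arrays numbered 2, and -0.225 to 0.273 without single arrays. For compound with the null virus, the twice-labelled array as vehicle gave Cpt1a 1386946_at -0.010 and Acadm 0.034, as compound it gave Cpt2 0.026 and Acaa2 -0.133, and equal medians gave Acadm 0.001. There, without single arrays, Cpt1a 1386946_at was -0.021 to 0.332, Cpt2 -0.091 to 0.059, Acadvl -0.045 to 0.165, Acadm -0.055 to 0.068, Acaa2 -0.070 to 0.204, Decr1 -0.044 to 0.127 and Etfdh -0.028 to 0.197. Acadm for compound with the PPARγ virus was -0.218 to 0.043. The interaction of Cpt1a 1367836_at was -0.015 with all 16 columns, -0.106 with the twice-labelled array as vehicle and -0.075 to 0.107 without single arrays, and that of Acadm -0.209 to 0.052.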

Other observations

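The array deposited under both null virus labels of replicate 2 entered no comparison, since its treatment cannot be told from the labels. On Acadl (285.1), Decr1 (314.1), Acadvl (146.9) and Hadha (207.1) it lay inside the range of the 6 null virus arrays used. On the other member probe sets it lay outside. The share of all probe sets outside that range was not counted, so these readings only describe the array. Acaa2 read 117.3, below the 186.9 to 272.9 of those 6 arrays, and Cpt1a 1367836_at read 48.4, below their 62.2 to 79.5. Acadm at 229.1, Etfdh at 51.8 and Slc25a20 at 237.9 were also lower, while Cpt2 at 399.0 and Cpt1a 1386946_at at 318.9 were higher than in any of the 6. The low 1367836_at beside the high 1386946_at is the arrangement that the PPARγ virus arrays numbered 2 showed as well, in both media. The beta-actin 3 prime to 5 prime ratio was 14.04 in this array and 14.883 and 13.407 in those arrays. It was 14.543 in null virus compound replicate 3, which read 65.0 on 1367836_at and 173.9 on 1386946_at. The non-beta hormone sum of the array with 2 labels was not computed. The part of RNA quality or cell content in this arrangement was not tested.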
